A study of Homo sapiens with 12 samples.

Results

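The control region of human mitochondrial DNA is the main noncoding stretch of the mitochondrial genome, and RNAs started at its light-strand promoter read along the minus strand of the reference sequence. The members described here are the poly(A) sites, that is, mapped 3′ ends of tailed RNA, on the minus strand of the mitochondrial chromosome (M) at positions 1 to 410 and 16020 to 16571 in hg19, taken by position and strand alone and with at least 1 read in any library. Because the chromosome is a circle of 16571 nt, these intervals form 1 stretch of 962 nt that runs from 410 down to 1 and on from 16571 to 16020. They hold 476 of the 640413 sites in the table of the pull-down libraries, 13 in the low-numbered part (1 to 410) and 463 in the high-numbered part (16020 to 16571). In the table of the cell fractions they hold 398 of 189010 sites, 11 and 387 in the same parts. The tables name no gene or transcript, so the link to the light-strand promoter rests on strand and position. Distances below are nucleotides downstream of position 410, the edge on the promoter side.

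Libraries were made by 3′READS+, which captures tailed RNA on oligo(dT), removes the tail and sequences the last bases before it. The RNA came from HEK293T, a human embryonic kidney cell line. The pull-downs used 1 clone in which STAU1 had been knocked out with a Cas9 nickase (C8). It was transfected for transient expression of either STAU1-FLAG or FLAG-GFP, and RNA was sequenced before (input) and after (IP) a pull-down with anti-FLAG. This gave 2 libraries in each of the groups STAU1 IP, STAU1 input, GFP IP and GFP input, all on the knockout background. For the fractions, cytoplasmic and polysomal RNA came from the same knockout clone (KO) and from its isogenic control C9 (wild type, WT), with neither plasmid named and 1 library in each group. The pull-down lysates were made with Triton X-100 and sonication, and the cytoplasm was separated with a commercial nuclear and cytoplasmic kit. The labels do not say whether replicates came from separate cultures, and the p-values below therefore describe the spread among these libraries, which may be technical.

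Transcription from the light-strand promoter produces the long light-strand RNA that carries MT-ND6 and several tRNAs, and also short RNAs that end inside the control region. The best known of the short ones is 7S RNA, a noncoding, polyadenylated RNA that starts at the promoter and ends near conserved sequence block I, and that has been reported to inhibit the mitochondrial RNA polymerase. Transcripts of this promoter that stop near the G-rich conserved sequence block II are the source of primers for heavy-strand replication. STAU1 (Staufen1) is a cytosolic protein that binds double-stranded RNA, while mitochondrial RNAs are made, and the coding ones translated, inside the organelle. In the RefSeq gene order the control region lies between TRNF (tRNA-Phe) and TRNP (tRNA-Pro), and TRNP is the next gene downstream on the minus strand.

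Pull-down libraries held 1245270 to 9655646 reads, with both GFP IP libraries the shallowest (1291888 and 1245270), and fraction libraries held 2799226 to 3483937. The minus-strand control region took 23971 to 275402 reads in a pull-down or input library and 21289 to 216583 in a fraction library. Of its 476 sites, 213 had reads in all 8 libraries, 40 in 1 library only, and 76 had fewer than 10 reads in total. The expression filter kept 306 of them, 12 in the low-numbered and 294 in the high-numbered part. The level of STAU1 itself was not analysed here.

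Most tailed RNAs of this stretch ended at 1 site. Site 219, 191 nt from the promoter-side edge, is called the main end below. It took 57065 and 55647 reads in the STAU1 IP libraries, 115178 and 171818 in STAU1 input, 14833 and 14720 in GFP IP, and 178148 and 163104 in GFP input. Among all sites of the table it ranked 1 or 2 in each of the 4 inputs and 3 or 4 in each of the 4 pull-downs. In every one of these 8 libraries it was the most abundant mitochondrial site. The median read of the region lay at this position in all 12 libraries, and the share of region reads at it was 60.5% to 70.0% in the pull-down and input libraries. In the fractions the share was higher, at 86.9% in WT cytoplasm, 87.1% in WT polysomes, 77.6% in KO cytoplasm and 82.0% in KO polysomes. Fractions and inputs were prepared differently and counted in separate tables, and this difference was not tested.

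Further ends lay on the promoter side of the main end, mainly between 50 and 164 nt from the edge. The most abundant was site 360, 50 nt from the edge, at 1712 ± 147 CPM in STAU1 input and 1429 ± 79.8 CPM in GFP input (mean ± SD, n = 2; CPM are reads relative to the TMM-scaled library size). Site 309, at 101 nt, had 651 ± 1.24 and 582 ± 37.6 CPM in the same groups, and site 246, at 164 nt, had 694 ± 50.7 and 526 ± 22.5 CPM. Site 284, at 126 nt, was lower, at 119 ± 15.3 and 123 ± 12.5 CPM. Beyond the main end, site 174, at 236 nt, led the low-numbered part with 1436 ± 9.83 CPM in STAU1 input and 1517 ± 53.4 CPM in GFP input. Next was site 80, at 330 nt, with 1404 ± 18.8 and 1347 ± 65.2 CPM. None of these neighbours reached the order of magnitude of the main end, at 20089 ± 807 and 23117 ± 3092 CPM in the same inputs. Sites 122, 15, 147 and 43 followed. In the inputs, 7.52% to 10.3% of region reads lay on the promoter side of the main end and 9.69% to 11.1% beyond it within the low-numbered part.

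Past the numbering origin the ends were spread over many positions. The stretch from 400 to 499 nt held 0.118% to 0.505% of region reads over the 12 libraries, and no site lay between position 16538 and, past the origin, position 15. From 500 to 699 nt, a second group of ends held 8.65% to 12.6% of region reads in the 8 pull-down and input libraries and 1.55% to 4.25% in the fractions. By the mean over the 8 libraries its most abundant single positions were 16409 (572 nt), 16365 (616 nt) and 16381 (600 nt), with 170 ± 4.84, 153 ± 20.7 and 107 ± 4.07 CPM in GFP input. A further end stood alone near the far edge, at 16027 (954 nt), with 716 ± 212 CPM in STAU1 input and 732 ± 122 CPM in GFP input. It held 15.3% of all reads of the high-numbered part in the pull-down table and 29.4% in the fraction table. The region's edges fell in sparse sequence: the outermost members, 386 and 16020, had 4 and 16 reads over the 8 libraries, and the nearest sites outside, 411 and 16019, had 24 and 1.

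**Figure D1:**
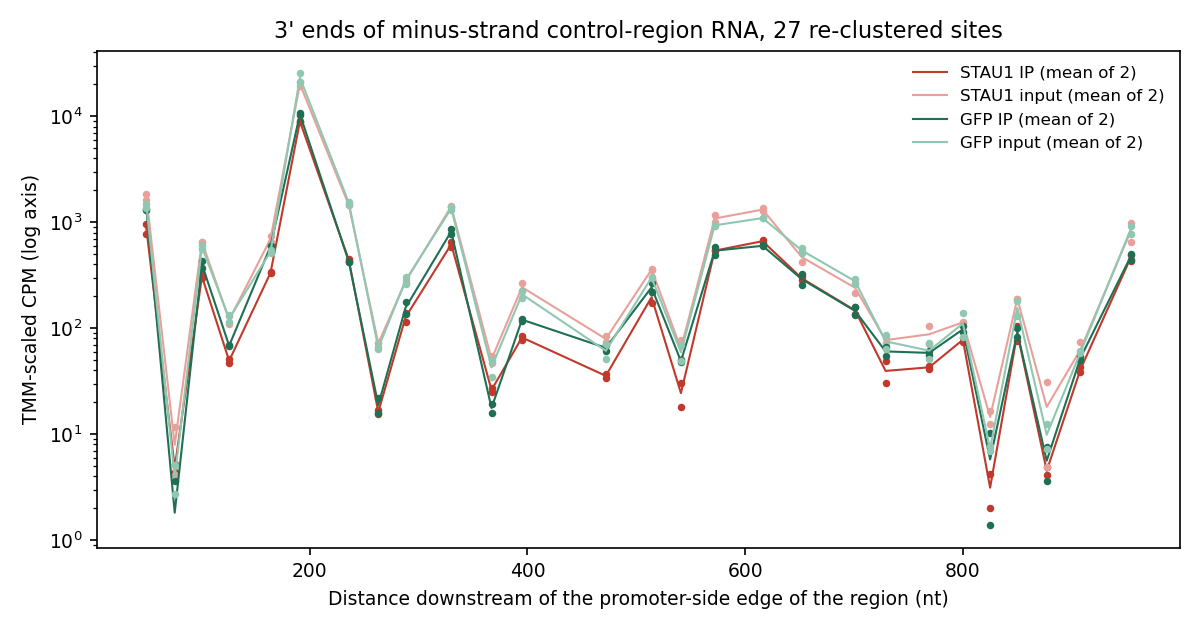
Mean TMM-scaled CPM (log axis) at 27 re-clustered sites against distance from the promoter-side edge (nt), for the 4 pull-down and input groups. Points are single libraries (2 per group) and lines join group means. The peak at 191 nt is the main end, and the pull-down lines lie below the input lines over most of the stretch.

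The deposited sites do not have the same width in both parts of the region. In the low-numbered part neighbouring sites were 25 to 45 nt apart in the pull-down table, and on chromosomes 1 to 22 and X only 16 of the 631630 sites followed another by 24 nt or less. In the high-numbered part the median gap was 1 nt, and each position carried its own count. The unmerged sites of the minus strand ran from 9703 to 16538. Levels and numbers of single positions there cannot be set against those of sites in the low-numbered part. The same RNA ends are also split over many weak tests. For that reason the main counts of calls are also given after merging of mitochondrial sites. The site with most reads took in sites within 24 nt, a step chosen after this spacing was seen. Single high-numbered positions named below are unmerged unless stated. Merging left 29 sites in the region (13 and 16 in the low-numbered and high-numbered parts), of which 27 were tested. At the merged sites 16365 and 16409, input levels were then 1317 and 1085 CPM in STAU1 input and 1095 and 935 CPM in GFP input, of the same order as those of sites 360, 80 and 174.

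The whole region made up a smaller share of the RNA in both pull-downs than in their inputs. It took 1.53% ± 0.026 of all reads in STAU1 IP against 3.04% ± 0.26 in STAU1 input, and 1.91% ± 0.019 in GFP IP against 3.04% ± 0.41 in GFP input (mean ± SD, n = 2). Neither pull-down overlapped its input. Summed TMM-scaled CPM over the region were 2.18-fold lower in STAU1 IP and 1.97-fold lower in GFP IP. The mitochondrial plus strand, which holds the rRNAs and most mRNAs, was 2.77-fold and 2.91-fold lower, and the rest of the minus strand 1.21-fold and 1.45-fold lower. As sums they were not tested.

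**Figure D2:**
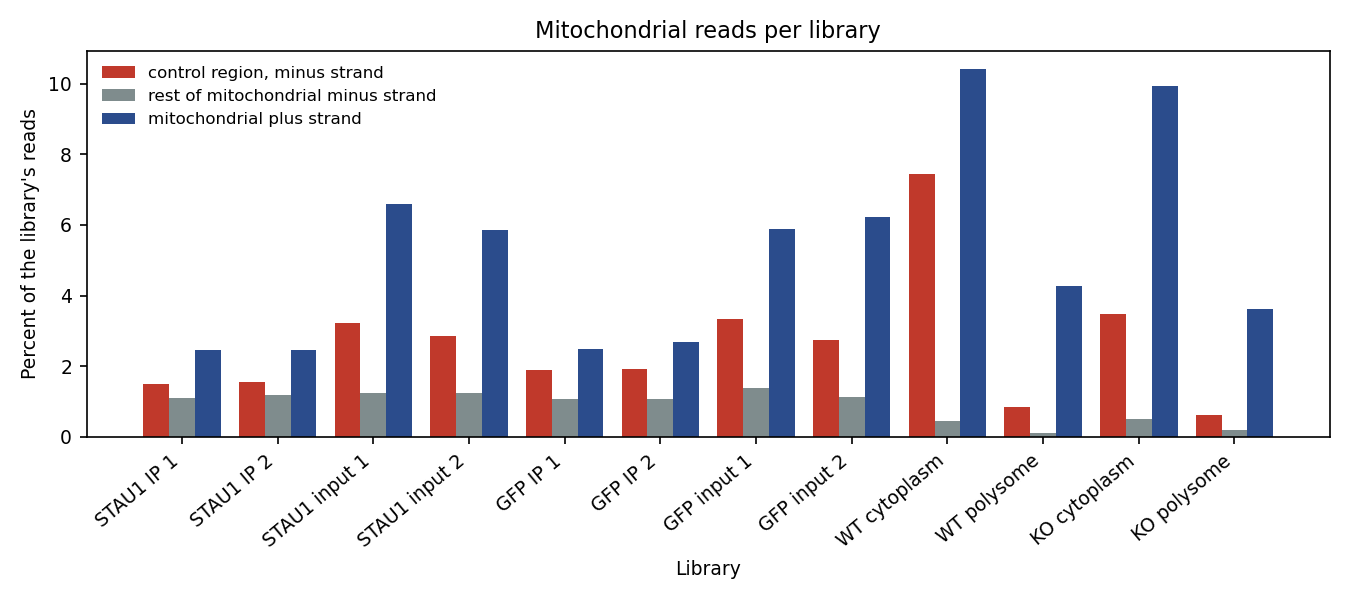
Percent of each library's reads in the minus-strand control region, on the rest of the mitochondrial minus strand and on the mitochondrial plus strand, with 1 group of bars per library (12 libraries). The control-region bars are lower in the 4 pull-downs (1.51% to 1.92%) than in the 4 inputs (2.75% to 3.33%), and highest in WT cytoplasm (7.46%).

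Ends of the light-strand-promoter RNAs were depleted from the STAU1 pull-down. The tests were run with edgeR across all 33744 sites that passed the filter, with Benjamini-Hochberg adjustment and a threshold of 0.05. Of the 306 tested members, 30 were lower in STAU1 IP than in STAU1 input and none were higher, where 2.99% of all tested sites were called lower and 3.06% higher. On the mitochondrial plus strand 135 of 441 tested sites were lower and 1 was higher. On the rest of the minus strand 22 of 1794 were lower and 3 higher. Without adjustment, 91 members were lower and 1 higher at p under 0.05. Of all 33744 tested sites, 2943 were lower and 3520 higher at that level. The median log2 change over the 306 was -0.84, against 0.12 over all tested sites. The calls were dense in the low-numbered part, at 10 of 12 tested sites (median -1.13), and sparse among the single positions of the high-numbered part, at 20 of 294 (median -0.80). After merging, 21 of 27 sites were lower (10 of 12 and 11 of 15), against a background of 3.32% lower and 3.3% higher. DESeq2 called 32 of the 306 lower, where 1193 of its 33744 tested sites were. A fit of only the 4 STAU1 libraries called 15 of 263 tested members lower, against 610 of 25871 sites.

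The main end had 8817 and 9168 CPM in the STAU1 IP libraries against 20660 and 19519 CPM in STAU1 input. The groups did not overlap, and the log2 change was -1.16 ± 0.14 (SE, adjusted p = 3.06e-05). On the promoter side, site 360 fell by 0.98 ± 0.16 on the log2 scale (adjusted p = 0.000954), from 1815 and 1608 CPM in input to 959 and 778 CPM in the pull-down. The other promoter-side ends, 309, 284 and 246, fell by 1.07, 1.27 and 1.05, so that all 4 lay near the change of the main end.

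Ends just beyond the main end had the lowest log2 changes of the low-numbered part. At site 174 the pull-down libraries had 428 and 450 CPM and the inputs 1429 and 1443 CPM, a log2 change of -1.71 ± 0.16 (adjusted p = 3.09e-06). Its weaker neighbour 147, at 263 nt, changed by -2.14 ± 0.28 (adjusted p = 0.000101), from 71.2 and 72.0 CPM to 17.0 and 15.5 CPM. Pull-down and input did not overlap at either site, and whether their changes differ from that of the main end was not tested. Sites 122, 80 and 15, further along, had log2 changes of -1.11, -1.18 and -1.56. The low-numbered sites that missed the threshold were 43, with -0.95 ± 0.31 (adjusted p = 0.0762), and 334, a sparse site with -0.69 ± 0.91. The calls of the low-numbered part that were recomputed singly, all but 284, kept their direction and their side of the threshold under the alternative settings. Windows of 10 nt were used for the main end only. Site 284 was lower with merged sites (edgeR, adjusted p = 0.00138).

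In the high-numbered part positions 16409 and 16365 changed by amounts close to the main end, and 16381 and 16027 by less. After merging, 16409 and 16365 changed by -1.01 and -0.99, against -1.17 at the main end. The median of the 15 merged sites tested there was -0.99. Whether these changes differ from that of the main end was not tested. Position 16409 had 94.7 and 96.1 CPM in STAU1 IP and 226 and 205 CPM in input, a log2 change of -1.18 ± 0.22 (adjusted p = 0.00267). At 16365 the change was -1.25 ± 0.25 (adjusted p = 0.00363), and 16381 missed the threshold with -0.74 ± 0.22 (adjusted p = 0.0555). The end near the far edge, 16027, changed by -0.86 ± 0.21 (adjusted p = 0.0147), and it lost its call when STAU1 IP replicate 1 or STAU1 input replicate 2 was left out and when the fit held only the 4 libraries of this contrast. The lowest log2 change of any called member, -4.28 ± 1.22 at 16116, came from 1 and 7 reads in the pull-down and 130 and 24 in input. Leaving out STAU1 input replicate 1 gave -2.11 and leaving out STAU1 IP replicate 1 gave -3.45, with the call lost in both fits. Other called positions with log2 changes under -1.6 were 16451, 16393, 16293, 16350 and 16425, and of these 16451, 16393, 16293 and 16350 each lost the call when 1 STAU1 library was left out.

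FLAG-GFP, a protein with no known RNA-binding role, served as the control bait, and ends of these RNAs were lower in its pull-down too. Of the 306 members, 17 were lower and none higher, where 3.99% of all tested sites were lower and 2.11% higher. At unadjusted p under 0.05, 57 were lower and 1 higher, where 3464 and 2138 of all 33744 tested sites were. The median log2 change was -0.79, against -0.16 over all sites. The mitochondrial plus strand had 89 of 441 tested sites lower and none higher. The rest of the minus strand had 23 of 1794 lower and 1 higher. In the low-numbered part 8 of 12 sites were lower and in the high-numbered part 9 of 294. Merged sites gave 13 of 27 (8 of 12 and 5 of 15), against a background of 4.32% lower and 2.26% higher. The count of 17 moved with the scaling, to 9 with the size factors of relative log expression (RLE) and 4 with library totals. All sites called lower went from 1348 to 1050 and 751. Higher sites made up 34.5% of all calls in the table with TMM, 46.8% with RLE and 61.7% with totals, and the median of all sites moved from -0.16 to -0.0019 and 0.13. The count of 17 also moved in both directions when 1 library was left out, which leaves 1 library in a group.

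The main end changed in the GFP pull-down by nearly the amount seen with STAU1. It had 10253 and 10729 CPM in GFP IP and 25303 and 20931 CPM in GFP input, a log2 change of -1.14 ± 0.14 (adjusted p = 3.39e-05). Sites 174 and 147, just beyond it, were again the lowest of the part. At 174 the values were 422 and 423 CPM against 1555 and 1479 CPM, a change of -1.84 ± 0.16 (adjusted p = 1.95e-06), and at 147 the change was -1.79 ± 0.31 (adjusted p = 0.00104). The calls at 219, 174 and 147 were kept under every alternative setting tried.

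Of the promoter-side ends 360, 309, 284 and 246, only 284 was called in the GFP pull-down. Site 360 had 1295 and 1340 CPM in GFP IP against 1485 and 1372 CPM in input, a log2 change of -0.12 ± 0.16 (adjusted p = 0.793) whose sign turned with other scalings. Site 246 had 594 and 593 CPM in the pull-down against 542 and 510 CPM in input, a log2 difference of 0.17 ± 0.17 (adjusted p = 0.671). Site 309 missed the threshold with -0.53 ± 0.17 (adjusted p = 0.0864), and 284 was called with -0.85 ± 0.23 (adjusted p = 0.0352). The call at 284 was lost with RLE (adjusted p = 0.0846), with library totals (adjusted p = 0.223) and when any 1 of the 4 GFP libraries was left out. Promoter-side ends made up 14.1% and 13.6% of region reads in GFP IP and 7.52% and 8.28% in GFP input. In the STAU1 libraries the same share was 11.5% and 10.0% in the pull-down and 10.3% and 9.75% in input, ranges that overlap.

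Of the ends beyond 147, sites 122, 80 and 15 were lower after the GFP pull-down, with log2 changes of -0.85, -0.72 and -0.79, and 43 with -1.27 ± 0.34 (adjusted p = 0.0295). The high-numbered positions 16409, 16365 and 16027 were lower too, with -0.96, -1.18 and -0.83. After merging the values at these sites were -0.79, -0.87 and -0.85. Position 16282 had no read in either GFP IP library and 52 and 31 in GFP input; taking 3 reads over the group as the floor, it was at least 5.26-fold lower. The remaining calls were 16412, 16427, 16328, 16371 and 16362. Of the 17 calls in the GFP pull-down, 14 were lost when at least 1 GFP library was left out, that is, all but 219, 174 and 147, and 13 of them without GFP IP replicate 1. The call at 16282 was also lost with RLE (adjusted p = 0.0573) and with library totals (adjusted p = 0.0696). Called members of both pull-downs numbered 11, which is 36.7% of the STAU1 calls and 64.7% of the GFP calls. Over all 33744 tested sites, 1008 were lower with STAU1 and 1348 with GFP. Their overlap was not counted, so these shares cannot be read as a trait of the members.

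**Figure D3:**
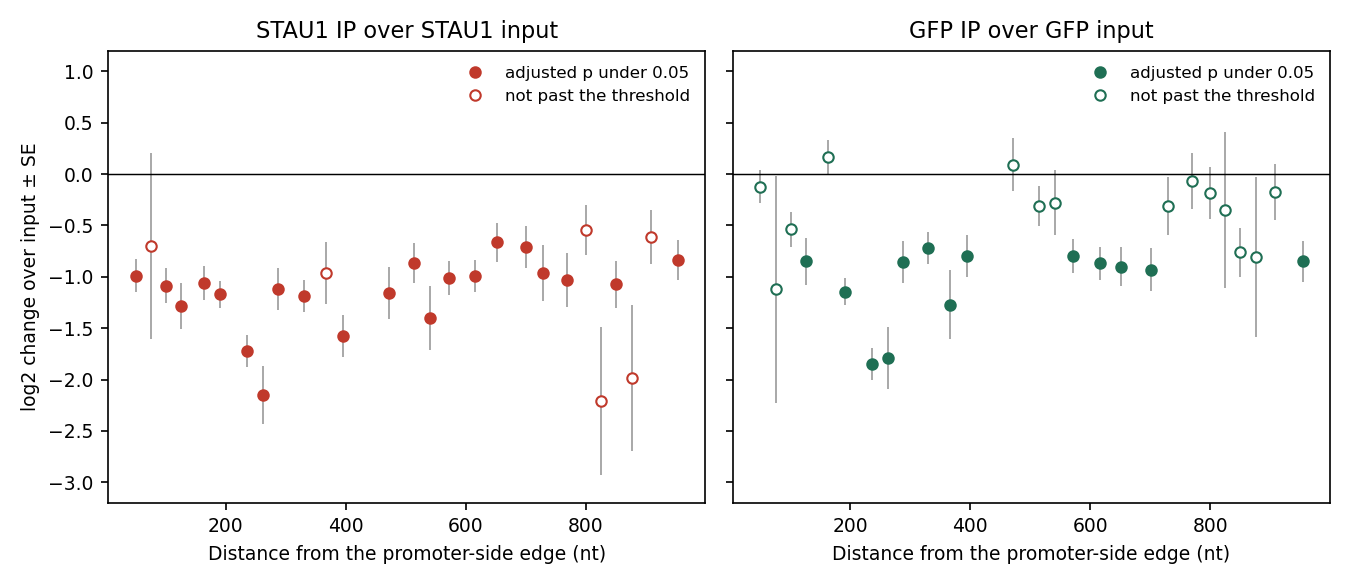
The log2 change of pull-down over input (± SE) at 27 re-clustered sites against distance from the promoter-side edge (nt), STAU1 on the left and GFP on the right. Filled points passed the adjusted threshold: 21 sites with STAU1 and 13 with GFP, all below 0. The most depleted points of the GFP panel lie at 236 and 263 nt, and its point at 164 nt (site 246) is above 0.

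The difference between the pull-downs was tested as a double ratio, STAU1 IP over its input against GFP IP over its input. The main end did not pass: its log2 double ratio was -0.020 ± 0.19 (adjusted p = 1.00 after rounding), with a sign that turned under several settings. One member was called, site 246, the promoter-side end next to the main end. Its double ratio was -1.22 ± 0.24 (adjusted p = 0.0185), where 0.157% of all tested sites were lower and 0.53% higher. The call held with RLE, library totals, DESeq2 and merged sites (where 0.179% of all sites were lower and 0.599% higher). It was lost when GFP IP replicate 1 (adjusted p = 0.106), GFP IP replicate 2 (adjusted p = 0.194) or STAU1 IP replicate 2 (adjusted p = 0.0867) was left out and with a filter of at least 10 reads over the 8 libraries (adjusted p = 0.0954), at values from -0.99 to -1.19. Site 360 had -0.86 ± 0.23 and 309 had -0.54 ± 0.25, neither past the threshold (adjusted p = 0.101 and 0.417). At unadjusted p under 0.05, 16 members were lower and 7 higher, where 1225 and 2531 of all 33744 tested sites were. Over the 306 the median double ratio was -0.045, against 0.30 over all sites.

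The inputs were also compared with each other, STAU1 input over GFP input, which sets STAU1-FLAG against FLAG-GFP in the same knockout cells. edgeR called no member in either direction, and DESeq2 called 0. The background in edgeR was 0.00889% higher and 0% lower (0.00941% and 0% after merging, with no call either). At unadjusted p under 0.05, 8 members were higher and 0 lower, where 638 and 717 of all 33744 tested sites were. The main end differed by -0.20 ± 0.14 on the log2 scale. Site 246 had the difference 0.40 ± 0.17, toward STAU1 input, which enters its double ratio.

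Where the RNAs ended, as opposed to how many there were, was compared through the share of the main end. The share of region reads at the main end was 61.4% ± 1.0 over the 4 pull-downs and 65.8% ± 3.3 over the 4 inputs (SD, n = 4 each), and the groups overlapped. The difference of -4.36 points had a two-sided exact permutation p of 0.0571, where 0.0286 is the smallest this design allows. The permutation ignores the bait. GFP IP (60.5% and 61.4%) did not overlap GFP input (70.0% and 66.4%), while STAU1 IP (60.9% and 62.8%) overlapped STAU1 input (64.2% and 62.4%). Within the low-numbered part alone the pooled shares were 74.2% and 77.0% (exact permutation p = 0.114). There the mean share was 75.7% in STAU1 IP and 75.1% in STAU1 input, against 72.7% in GFP IP and 78.9% in GFP input. With 2 libraries against 2, no test within a bait could pass the threshold, and the difference between the baits was not tested.

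**Figure D4:**
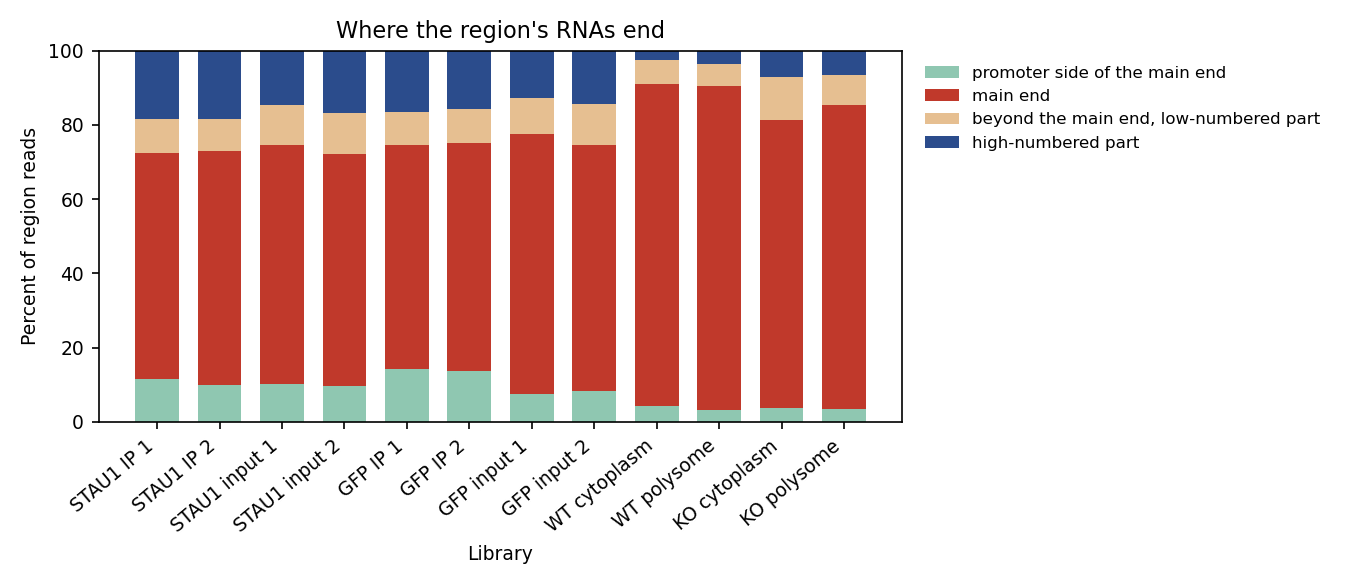
Percent of region reads on the promoter side of the main end, at the main end, beyond it within the low-numbered part, and in the high-numbered part, as stacked bars for the 12 libraries. The main end holds 60.5% to 70.0% in the pull-down and input libraries and 77.6% to 87.1% in the fractions, and the promoter-side segment is tallest in the GFP IP libraries (14.1% and 13.6%).

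The same RNAs were next followed into polysomes, the fraction of ribosome-bound mRNA, in cells with and without STAU1. Each group is 1 library, so no test was made, and the intervals given cover counting error only. Site 219 had 188306 reads in WT cytoplasm, 20919 in WT polysomes, 87258 in KO cytoplasm and 17465 in KO polysomes. It was the most abundant site of the WT cytoplasm library and ranked 8 in WT polysomes, 2 in KO cytoplasm and 13 in KO polysomes. After TMM scaling, polysome over cytoplasm was -3.38 on the log2 scale in WT (95% counting interval -3.40 to -3.36) and -2.63 in KO (-2.65 to -2.60).

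Every member deep enough to measure was low in polysomes. With at least 50 reads in each of the 4 libraries, 9 sites remained, 8 of them in the low-numbered part. All 9 were more than 2-fold lower in polysomes than in cytoplasm in both genotypes. Of the 4766 sites measured this way, 5.85% were so in WT and 4.68% in KO (2.52% and 1.72% were as far higher). On the rest of the mitochondrial minus strand 8 of 8 sites were so in WT and 7 of 8 in KO. On the plus strand 23 of 39 were so in WT and 25 of 39 in KO. The median log2 ratio of the 9 members was -3.38 in WT and -3.01 in KO, against -0.021 and 0.0071 over all sites. In WT the ratios ran from -4.03 at 360, the end nearest the promoter-side edge, to -3.04 at 16027, the farthest. The ratios did not follow distance throughout: averaged over both genotypes, site 80 (330 nt) had -3.43 and site 312 (98 nt) -3.12. Only 3′ ends were mapped, so RNA lengths were not measured. In KO they ran from -3.28 at 156 to -2.55 at 246. The fraction table places the ends beyond the main one at 189, 156 and 53, where the pull-down table has 174, 147 and 43, so those sites were not matched between tables. After merging, 13 sites could be measured, 5 of them in the high-numbered part, and all 13 were again more than 2-fold lower in both genotypes. The backgrounds were then 6.12% lower and 2.47% higher in WT, and 4.88% lower and 1.63% higher in KO. The 5 high-numbered sites had median log2 ratios of -2.74 in WT and -2.84 in KO, and the 8 low-numbered ones -3.43 and -3.02.

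In sums, the other mitochondrial RNAs were lower in polysomes by smaller factors. Summed over the region, CPM were 10.4-fold lower in WT polysomes and 6.54-fold lower in KO polysomes than in the cytoplasm. For the rest of the minus strand the factors were 4.58 and 2.97, and for the plus strand 2.91 and 3.16. Single plus-strand sites spread more widely than the region's, from -4.44 to 0.70 in WT and -4.06 to 0.35 in KO over 39 sites, with 7 and 1 of them above 0. The share of each library in the region was 7.46% in WT cytoplasm, 0.858% in WT polysomes, 3.48% in KO cytoplasm and 0.611% in KO polysomes. How many mitochondria or how much of their content each fraction held was not measured, and its part in these ratios was not tested.

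**Figure D5:**
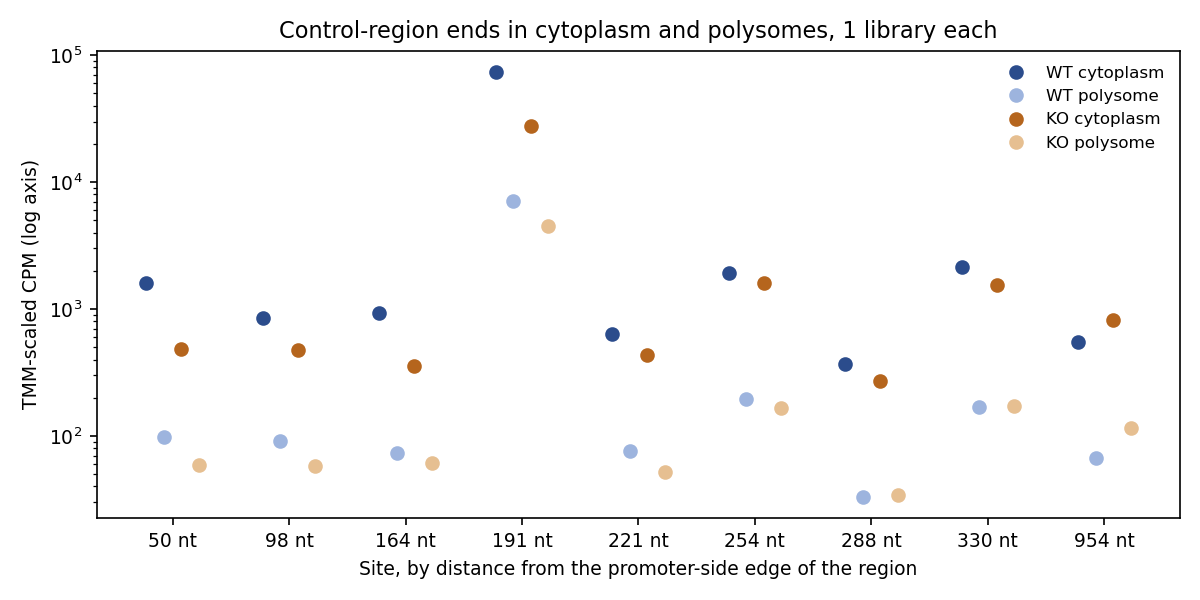
TMM-scaled CPM (log axis) in the 4 fraction libraries (1 each) at the 9 sites with at least 50 reads in every fraction library, ordered by distance from the promoter-side edge (nt). At all 9 sites both polysome points lie below both cytoplasm points, and only at 954 nt (site 16027) is KO above WT in both fractions.

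Knockout and wild-type cytoplasm differed most at the main end and on its promoter side. In KO cytoplasm the main end was at 27828 CPM and in WT cytoplasm at 73732 CPM, a log2 ratio of -1.41 (95% counting interval -1.42 to -1.39). The promoter-side sites 360, 246 and 312 had -1.73, -1.38 and -0.86. Beyond the main end the ratios were smaller, at -0.57, -0.26, -0.44 and -0.47 for 189, 156, 122 and 80, and at the far end 16027 the ratio was 0.57. Sites 219, 360 and 246, 3 of the 9, thus passed a 2-fold difference downward and none upward, where 2.35% of all sites did so downward and 1.57% upward. After merging, the 5 measurable sites of the high-numbered part all lay above 0, from 0.036 to 0.53, and the 8 low-numbered sites all below 0, from -1.73 to -0.26 (background 2.35% past 2-fold downward and 1.59% upward). With library totals in place of TMM the signs at the 9 deposited sites were the same, 8 below and 1 above 0.

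In polysomes the main end was at 4499 CPM in KO and 7101 CPM in WT polysomes, a log2 ratio of -0.66 (-0.69 to -0.63), site 360 had -0.72, and 16027 had 0.78. None of the 9 sites passed a 2-fold difference, where 1.2% of all sites did so downward and 1.03% upward. The same held for the 13 merged sites, against 1.19% and 0.985%. The plus strand as a whole had KO over WT log2 ratios of -0.21 in cytoplasm and -0.33 in polysomes, and the rest of the minus strand 0.017 and 0.64. With 1 library in each group and 1 clone of each genotype, the genotype, the clone and the preparation of the fraction cannot be told apart.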

How the data were processed

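The submitters' processing notes name STAR and hg19. Its version, the rule for clustering sites and any read filters are not given in the sources used here. What the authors deposited are raw read counts for each poly(A) site, unnormalized, in separate tables for pull-downs and fractions, and all per-sample columns were used. The members, the settings and the naming rule were chosen with earlier results of these data known.

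The counts were fitted in R 4.3.3 by the quasi-likelihood method of edgeR 4.0.16 (TMM scaling, filterByExpr by group, 4 groups over 8 libraries, 4 residual degrees of freedom), with Benjamini-Hochberg adjustment over 33744 sites. On simulated counts the fit recovered 28% of 2-fold and 83% of 4-fold changes in STAU1 IP over STAU1 input (100 sites each, 28788 tested). These rates were not split by depth of coverage. They cannot be carried over to sparse sites, such as many single positions of the high-numbered part. Fractions were compared as log2 ratios of TMM-scaled counts, for sites that reached 50 reads in every library, with 95% counting intervals. Reads carry no molecular identifiers used here, so these cover counting error only. Alternatives were RLE and total-count scaling, DESeq2 1.42.0, other filters, a replicate block, leaving out each library and merged sites. Windows of 10 nt were used for site 219 only. Named sites are the 12 with the highest mean CPM, up to 8 called members at each end of the log2 changes of a contrast, and the 4 highest and 4 lowest polysome ratios; a few more are named to complete a count. No sequence is printed because no mitochondrial sequence of this build was used here, and hg19 numbering of this chromosome differs from that of the revised Cambridge sequence.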

Additional observations from a re-analysis of the deposited data

Results flagged for a closer look

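The response of site 246 differed between the STAU1 and GFP pull-downs in the test of the difference itself, with a log2 double ratio of -1.22. Its log2 change was -1.05 with STAU1 (adjusted p = 0.000684, edgeR) and 0.17 with GFP (adjusted p = 0.671), the latter not past the threshold and of unstable sign. The difference was not called when either GFP IP library (adjusted p = 0.106 and 0.194) or STAU1 IP replicate 2 (adjusted p = 0.0867) was left out.

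Sites 80 and 122 had opposite signs of KO over WT in the fractions. At 80 the log2 ratio was -0.47 in cytoplasm and 0.029 in polysomes, and at 122 it was -0.44 and 0.032. Each value compares 1 library with 1 other, the polysome values lie within counting error of 0, and the difference was not tested.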

How the results depend on the processing

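For the named sites, 546 of 671 recomputed log2 changes kept their direction and side of the threshold, 98 fell short of it, 14 newly passed it and 13 changed sign. The sign changes were at site 360 in the GFP pull-down (0.037 with RLE and with DESeq2, 0.044 with the filter on a mean of 10 reads, 0.19 with library totals), at 246 in the GFP pull-down (-0.088 with at least 10 reads over the 8 libraries, and -0.00233 to 0.12 when 1 library was left out) and at 219 in the double ratio (0.21 with at least 10 reads, and -0.062 to 0.14 when 1 library was left out). None of these values was past the threshold.

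The 30 lower members in the STAU1 pull-down, of 306 tested, became 15 of 263 when only its 4 libraries were fitted. Lower calls over all sites then went from 1008 of 33744 to 610 of 25871. With RLE and library totals the 30 became 29 and 22, where 1034 and 834 of all 33744 sites were lower. Lower and higher member counts of the STAU1 pull-down both moved when 1 library was left out, which leaves 1 library in a group. The 17 in the GFP pull-down became 9 (RLE), 4 (library totals), 26 (at least 10 reads over the libraries), 11 (mean of 10 reads) and 5 to 32 without 1 library, with 0 to 1 higher. With at least 10 reads, 400 members were tested and 1958 of all 85917 sites were lower. With a mean of 10 reads, 264 members were tested and 1107 of all 22254 sites were lower. Fits without 1 library tested 346 to 354 members rather than 306, and their lower calls over all sites moved in both directions too. The double ratio gave 2 lower members with RLE, library totals and a mean of 10 reads, 5 with DESeq2 and 0 with at least 10 reads. Lower calls over all sites were 53 in the main fit and, in the order named, 96, 97, 78, 316 and 61. Lower and higher members of the double ratio also moved without 1 library. The comparison of inputs gave 0 to 3 lower and 0 to 2 higher. The highest of these counts in both directions arose without STAU1 input replicate 2, a fit that leaves 1 library in that group. The median log2 difference over all sites was then -0.41, against -0.079 in the main fit. Calls over all sites also rose in both directions, so the member calls arose within a shift of the whole table.

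Same-numbered replicates did not deviate together (correlations -0.02 to 0.02 over 33744 sites), so the numbers are not taken to pair the samples. With the replicate block, 36 members were lower in the STAU1 pull-down, 19 in the GFP pull-down and 2 in the double ratio. Of all 33744 sites, 1192, 1605 and 123 were then lower.

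In the low-numbered part alone, the region's share of the library was 1.25% (STAU1 IP), 2.56% (STAU1 input), 1.60% (GFP IP), 2.63% (GFP input), 7.27% (WT cytoplasm), 0.828% (WT polysomes), 3.23% (KO cytoplasm) and 0.572% (KO polysomes). The main end then held 75.7%, 75.1%, 72.7% and 78.9% of reads in STAU1 IP, STAU1 input, GFP IP and GFP input, and 89.2%, 90.3%, 83.6% and 87.7% in the fractions in the same order. With at least 20 reads per library, all 14 sites measured were below 0 in polysomes in each genotype. Over all 8234 sites so measured, 4246 were below 0 in WT and 4136 in KO. The cause of these shifts was not tested. Counts at single positions of the high-numbered part were often low, and the GFP IP libraries were the shallowest of the 8.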
